A study of Mus musculus with 8 samples.

Results

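Fatty acid oxidation, ketogenesis and peroxisome genes were followed in the middle colon of mice after chemically induced colitis. The members were 33 genes named by function, from fatty acid activation and the carnitine shuttle to the nuclear receptors that control them. Of these, 32 had a probe set annotated to that gene alone and were measured, among 22180 genes tested, and Acsl1 was not analysed here. Acss1 alone had a second such probe set, and the brighter of its probe sets stands for it.

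The samples were 4 Trim58-/- (KO) mice, which lack the ubiquitin ligase gene Trim58 in all cells, and 4 Trim58+/+ (WT) mice. The labels give the strain C57BL/6-Trim58tm2313Arte for both genotypes, and all 8 mice were females of 9 weeks. Every mouse, WT included, drank 4% dextran sodium sulfate (DSS), a polysaccharide that injures the colon lining, for 7 days and plain water for 5 days, and was killed on day 12. One whole-transcript array was hybridised per mouse, so the comparison asks how KO and WT colons differ within colitis, and the number of arrays limits its precision.

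Beta-oxidation shortens fatty acids step by step in mitochondria. Long chains enter as carnitine esters, each cycle passes electrons to the respiratory chain, and the acetyl-CoA produced feeds the citric acid cycle or ketone bodies. Colonocytes, the absorptive cells of the colon surface, are known to burn butyrate made by gut bacteria by this route. Peroxisomes shorten very long and branched chains, and the receptor PPAR alpha switches on genes of both compartments.

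Signals are given as log2 values of the array signal, and a difference is the KO mean minus the WT mean on that scale. Array medians lay between 5.73 and 5.83. Trim58 read 4.91, 5.37, 4.82 and 5.11 in KO replicates 1 to 4, against 5.22, 5.07, 5.18 and 5.03 in WT replicates 1 to 4 (exact permutation p = 0.6, two-sided; limma adjusted p = 0.839). KO and WT arrays overlapped, and all 8 values, WT included, lay below 5.49, the level under which 95% of 1088 olfactory receptor genes lay, so Trim58 signal gives no check of the genotype labels, and the position of its probes relative to the deletion is unknown here. Markers of pancreatic acinar cells averaged 9.93, 10.77, 5.20 and 10.59 in KO replicates 1 to 4, against 5.32 to 5.45 in WT arrays, so KO replicates 1, 2 and 4 stand apart from KO replicate 3. All 13 measured colonocyte markers and all 11 epithelium markers read above 5.49 in every array. Of the 32 members, 30 had a mean above that level, and Hadhb and Acot1 did not.

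None of the 32 members passed the threshold of an adjusted p under 0.05 (limma, Benjamini-Hochberg adjustment over all 22180 genes), where 0.577% of all genes did. The members' signals nevertheless lay mostly on the lower side in KO colons: 28 of 32 had a difference below 0, against 53.9% of all tested genes. The median difference over the 32 members was -0.15, and over all tested genes it was -0.01. At an unadjusted limma p under 0.05, 10 members were lower in KO and 0 higher, where 8.10% of all genes were lower and 6.22% higher. The members' differences ran between -0.49 for Acot2 and 0.23 for Pparg, all of them small.

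For 5 of the 32 members, Acss1, Hadhb, Hadh, Etfdh and Pex11a, all 4 KO values lay below all 4 WT values, where 8.81% of all genes had no overlap between genotypes and 5.02% had none with KO lower and 3.79% with KO higher. Leaving out 1 array gave counts of 5 to 10, with 8, 9 and 10 without KO replicate 3, KO replicate 4 and WT replicate 4. With fewer arrays any gene separates more easily, and the share over all genes was not computed for these fits. The count of 10 at the unadjusted threshold was 6 without KO replicate 2, 5 without WT replicate 2 and 3 with KO replicate 3 as the only KO array, a fit in which the WT arrays alone give the spread. It was 2 with the pancreatic acinar marker mean as a covariate, 2 with the posterior colon marker mean and 0 with the colonocyte marker mean. The share of all genes at the unadjusted threshold was not computed for these alternative fits. Over all genes, the number past the adjusted threshold fell from 128 to 2, 2 and 0 with the same covariates. That threshold is not the one of the members' count of 10, so whether the drop is particular to the members was not tested. The 95% interval of the difference lay within 1.5-fold in either direction for 30 of 32 members, all but Acot2 and Ppargc1a. It also did for 19658 of all 22180 tested genes, so this is not particular to the members.

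**Figure D1:**
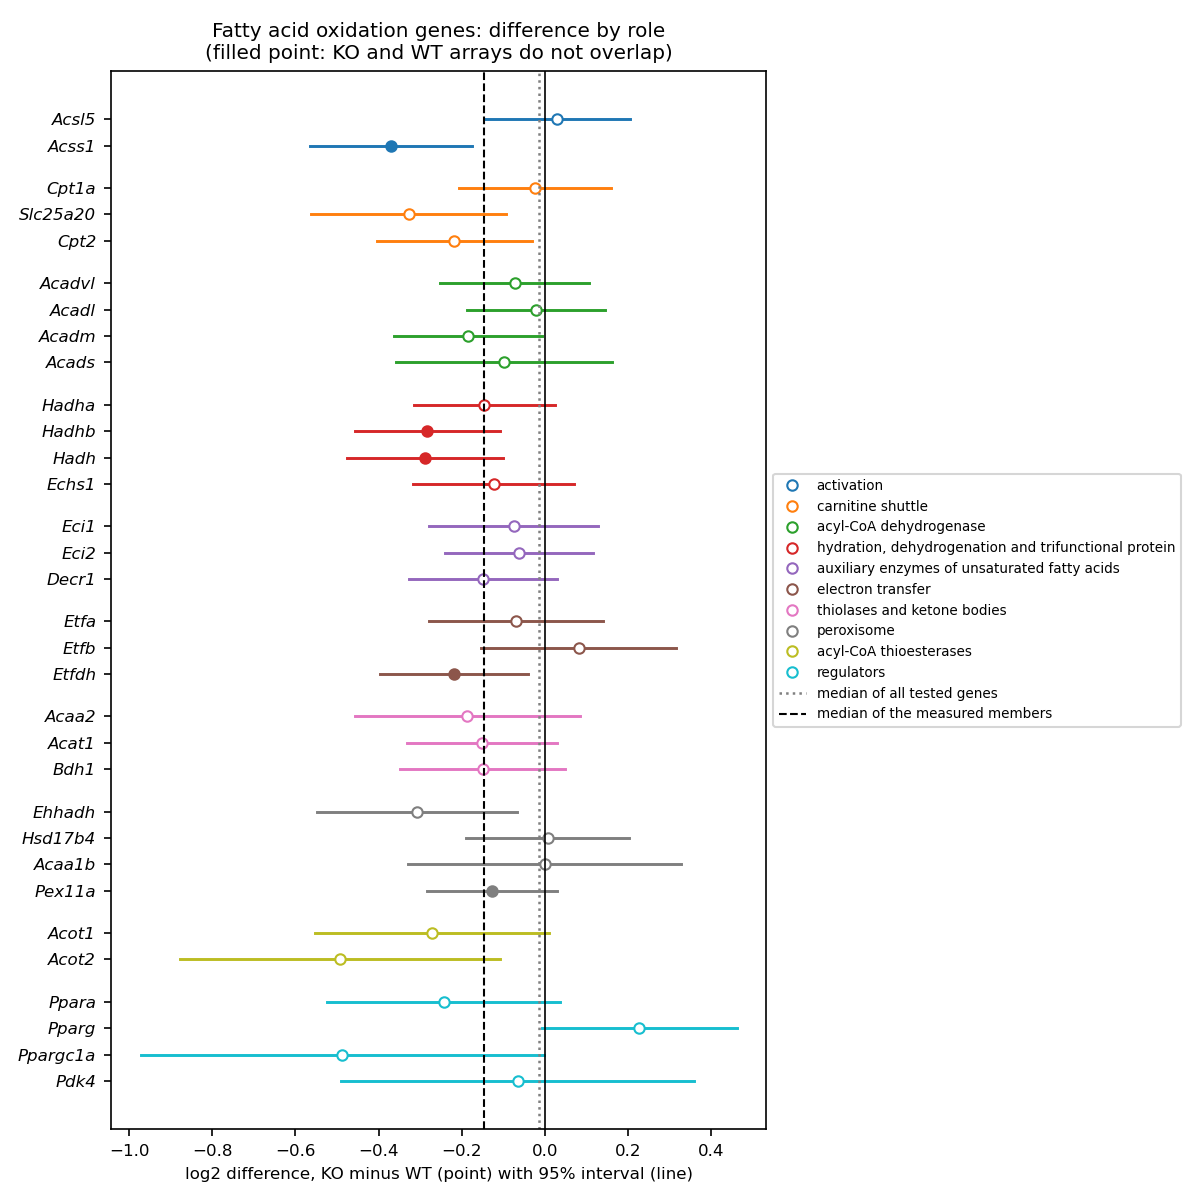
Log2 difference, KO minus WT, of the 32 measured members (points) with 95% intervals (lines), grouped by role. 28 points lie below 0, filled points mark the 5 genes whose KO and WT arrays did not overlap, and the dashed and dotted lines are the medians of the members (-0.15) and of all tested genes (-0.01).

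Array by array, the median of the members' differences from the WT mean was -0.04, -0.21, -0.10 and -0.17 in KO replicates 1 to 4. Each WT array set against the mean of the other WT arrays gave -0.07, 0.09, -0.04 and 0.06 for replicates 1 to 4. KO replicates 2, 3 and 4 thus lay below every WT array, and KO replicate 1 lay inside the WT range. In KO replicates 2, 3 and 4, 27 of 32 members were below the WT mean, and in KO replicate 1, 19 were. WT replicate 1 itself had 23 members below the mean of the other WT arrays, which shows the spread among WT colons.

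Marker means of colonocytes and neutrophils did not overlap between genotypes, while those of epithelium, smooth muscle, posterior colon and macrophages overlapped. Colonocyte markers averaged 10.52, 10.24, 10.46 and 10.29 in KO replicates 1 to 4, against 10.80, 11.06, 10.75 and 10.78 in WT replicates 1 to 4, without overlap. Of the 13, 11 had a difference below 0 and 2, Car4 and Slc37a2, were lower at the adjusted threshold, where 0.185% of all genes were. The shift was uneven, between -1.81 for Slc37a2 and 0.04 for Ceacam1, with a median of -0.25. Car1, Krt20 and Guca2a differed by -0.05, -0.09 and 0.02. Epithelium markers averaged 10.28 to 10.41 in KO arrays and 10.37 to 10.53 in WT arrays. Of these 11 markers, 10 had a difference below 0 and 0 passed the threshold. Smooth muscle markers averaged 9.63 to 10.20 in KO arrays and 9.98 to 10.40 in WT arrays. All 10 had a difference below 0, with a median of -0.35, and 0 passed. At an unadjusted limma p under 0.05, 7 of these 10 were lower in KO, where 8.10% of all genes were. Neutrophil markers ran the other way, at 6.80 to 7.54 in KO arrays against 5.10 to 5.56 in WT arrays. Of these, 8 of 10 were higher in KO at the adjusted threshold, where 0.392% of all genes were. Posterior colon markers averaged 5.79 to 6.29 in KO arrays and 6.20 to 6.40 in WT arrays, with 8 of 8 differences below 0 and 0 past the threshold. Macrophage markers averaged 8.61 to 9.02 in KO arrays and 7.95 to 9.09 in WT arrays, with 9 of 9 differences above 0 and 0 past the threshold. The part of these cells in the members' differences was not tested beyond the covariates given.

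In whole tissue, fewer cells of a type and less RNA per cell cannot be told apart. With each array's colonocyte marker mean as a covariate, the median member difference was 0.02 and 14 of 32 members lay below 0. Since that mean does not overlap between genotypes, the marker shift and the genotype cannot be told apart. In KO replicate 3, which lacked the pancreatic signal, the median was -0.10, and with the pancreatic marker mean as a covariate it was -0.08.

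**Figure D2:**
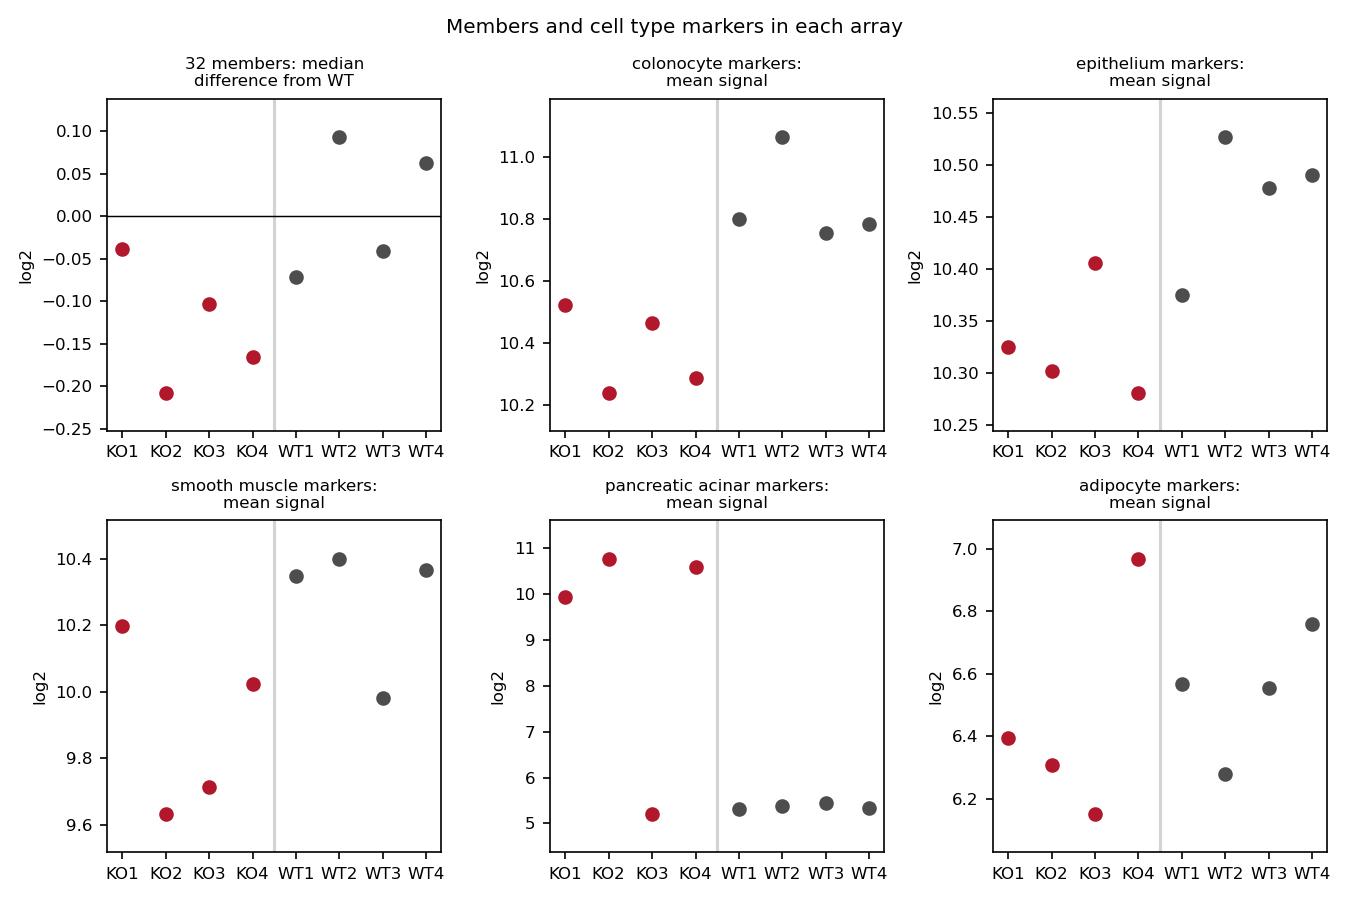
Median difference of the 32 members from WT and mean signal of 5 marker lists (y axes, log2) in each array (x axis, KO arrays red, WT arrays grey). The colonocyte panel shows KO arrays between 10.24 and 10.52 and WT arrays between 10.75 and 11.06, and the pancreatic panel shows KO replicate 3 at 5.20, with the WT arrays.

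Activation joins a fatty acid to coenzyme A. Acss1, the mitochondrial enzyme that activates acetate, had the smallest p of the members. It read 8.97, 8.66, 8.86 and 8.92 in KO replicates 1 to 4, against 9.21, 9.32, 9.14 and 9.22 in WT replicates 1 to 4. Every KO array was thus below every WT array, with KO replicate 2 the lowest. The means were 8.85 ± 0.14 in KO and 9.22 ± 0.07 in WT (SD, n = 4 each), a difference of -0.37 ± 0.09 (SE), or 0.774-fold, with limma adjusted p = 0.0956. Its dimmer second probe set had means of 4.47 in KO and 4.62 in WT and a difference of -0.15 (limma adjusted p = 0.641). Acsl5, a long-chain acyl-CoA synthetase of intestinal epithelium, differed by 0.03 (95% interval -0.15 to 0.21).

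All 3 carnitine shuttle genes had differences below 0, none passed, and KO and WT arrays overlapped for each. Cpt1a, the carnitine palmitoyltransferase of the outer membrane that sets the pace of entry, read 9.77, 9.84, 9.66 and 9.65 in KO replicates 1 to 4 and 9.62, 9.78, 9.75 and 9.86 in WT replicates 1 to 4. The genotypes overlapped fully, with a difference of -0.02 (95% interval -0.21 to 0.16, limma adjusted p = 0.931). Slc25a20, the carrier that exchanges acylcarnitine for carnitine across the inner membrane, read 9.63, 9.43, 9.84 and 9.70 in KO arrays and 10.15, 10.00, 9.94 and 9.82 in WT arrays. Only KO replicate 3 crossed into the WT range, above WT replicate 4. The difference was -0.33 ± 0.11 (SE), 0.797-fold (limma adjusted p = 0.181). Cpt2, which frees the fatty acid from carnitine in the matrix, read 8.81, 8.67, 8.88 and 8.90 in KO arrays and 8.90, 9.12, 9.04 and 9.09 in WT arrays. KO replicate 4 and WT replicate 1 met at 8.90, and the difference was -0.22 ± 0.08 (SE), 0.859-fold (limma adjusted p = 0.264).

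The acyl-CoA dehydrogenases take the first oxidation step, each for a range of chain lengths, and all 4 differences were below 0. Acadm, the medium-chain enzyme, read 10.24, 10.10, 10.18 and 10.29 in KO replicates 1 to 4 and 10.36, 10.47, 10.27 and 10.46 in WT replicates 1 to 4. KO replicate 4 was just above WT replicate 3, and the other KO arrays lay below all WT arrays. Its difference was -0.19 ± 0.08 (SE; limma adjusted p = 0.331). The very-long-chain enzyme Acadvl differed by -0.07, the long-chain enzyme Acadl by -0.02 and the short-chain enzyme Acads, which acts on butyrate, by -0.10, with limma adjusted p of 0.751, 0.933 and 0.766. Their 95% intervals were -0.25 to 0.11, -0.19 to 0.14 and -0.36 to 0.16.

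The next steps hydrate the chain, oxidise it again and cleave it, and the 4 genes for them had a median difference of -0.21. Hadhb encodes the thiolase-bearing beta subunit of the mitochondrial trifunctional protein. It read 5.22, 5.23, 5.12 and 5.29 in KO replicates 1 to 4 and 5.39, 5.60, 5.46 and 5.54 in WT replicates 1 to 4. The genotypes did not overlap, and the difference was -0.28 ± 0.08 (SE), 0.822-fold (limma adjusted p = 0.136). This probe set was dim, brighter than 94.5% of olfactory receptor genes. Hadha, the alpha subunit of the same complex, lay between 10.55 and 10.77 in KO arrays and between 10.74 and 10.86 in WT arrays, a difference of -0.15 (95% interval -0.32 to 0.02, limma adjusted p = 0.428). Whether the subunits differed from each other was not tested.

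Hadh, the hydroxyacyl-CoA dehydrogenase of medium and short chains, read 10.91, 10.72, 10.89 and 10.96 in KO replicates 1 to 4 and 11.03, 11.22, 11.14 and 11.25 in WT replicates 1 to 4. All KO arrays lay below all WT arrays. The difference was -0.29 ± 0.08 (SE), 0.819-fold (limma adjusted p = 0.148). Echs1, the short-chain enoyl-CoA hydratase, differed by -0.12 (95% interval -0.32 to 0.07).

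Hadha and Hadhb lie head to head, with start sites 273 bases apart on opposite strands of chromosome 5, so 1 stretch of DNA is the promoter of both subunits. The part upstream of both starts and inside both RefSeq promoter windows is shown here because the subunits were read as neighbours (GRCm38.p6, chr5:30155003-30155230, + strand, in the direction of Hadhb, 228 bases).
Hadha and Hadhb: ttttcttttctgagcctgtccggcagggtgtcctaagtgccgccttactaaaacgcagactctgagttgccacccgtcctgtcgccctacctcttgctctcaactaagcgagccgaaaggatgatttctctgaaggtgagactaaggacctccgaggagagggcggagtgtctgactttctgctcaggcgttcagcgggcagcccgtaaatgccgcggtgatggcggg

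Auxiliary enzymes prepare unsaturated chains for the cycle. Eci1 and Eci2, enoyl-CoA isomerases that move double bonds, differed by -0.08 and -0.06, and Decr1, the mitochondrial dienoyl-CoA reductase, by -0.15 (limma adjusted p = 0.772, 0.786 and 0.441). KO and WT arrays overlapped for all 3, between 7.35 and 7.49 in KO against 7.46 and 7.69 in WT for Decr1.

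Electrons from the dehydrogenases pass through the flavoprotein ETF to its membrane oxidoreductase. Etfdh, which encodes that oxidoreductase, read 9.63, 9.44, 9.57 and 9.61 in KO replicates 1 to 4 and 9.70, 9.87, 9.70 and 9.84 in WT replicates 1 to 4. KO replicate 1 was the nearest to the WT arrays, and no arrays overlapped. The difference was -0.22 ± 0.08 (SE), 0.860-fold (limma adjusted p = 0.243). Of the ETF subunit genes, Etfa differed by -0.07 (95% interval -0.28 to 0.14) and Etfb by 0.08 (95% interval -0.15 to 0.32), with KO replicate 1 at 8.72 for Etfb against 8.32 to 8.38 in the other KO arrays.

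Thiolases and ketone body enzymes handle the acetyl-CoA end of the route. Bdh1, which interconverts acetoacetate and 3-hydroxybutyrate, read 7.66, 7.41, 7.68 and 7.44 in KO replicates 1 to 4 and 7.64, 7.77, 7.76 and 7.61 in WT replicates 1 to 4. KO replicates 1 and 3 lay inside the WT range and KO replicates 2 and 4 below it. The difference was -0.15 ± 0.09 (SE; limma adjusted p = 0.501). Acaa2, the mitochondrial 3-ketoacyl-CoA thiolase, differed by -0.19 (95% interval -0.46 to 0.08), and Acat1, the acetoacetyl-CoA thiolase that ketone body synthesis and use share, by -0.15 (95% interval -0.33 to 0.03).

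None of the 4 peroxisomal members passed, and whether they differed from each other was not tested. Ehhadh, a bifunctional enzyme of peroxisomal beta-oxidation and a classical PPAR alpha target in rodent liver, read 7.46, 7.04, 7.11 and 7.00 in KO replicates 1 to 4 and 7.41, 7.50, 7.37 and 7.56 in WT replicates 1 to 4. KO replicate 1 lay within the WT range and the other KO arrays well below it. The difference was -0.31 ± 0.11 (SE), 0.808-fold (limma adjusted p = 0.220). Leaving out 1 array gave -0.41 without KO replicate 1 (limma adjusted p = 0.0932) to -0.25 without KO replicate 4 (limma adjusted p = 0.377), and the colonocyte covariate gave 0.0267. Pex11a, which promotes peroxisome division, lay between 6.69 and 6.81 in KO arrays and between 6.84 and 6.95 in WT arrays, without overlap but with a difference of -0.13 (limma adjusted p = 0.459).

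Acaa1b, a peroxisomal thiolase, read 6.32, 6.08, 6.12 and 5.60 in KO replicates 1 to 4 and 5.79, 6.12, 6.07 and 6.14 in WT replicates 1 to 4. The means were 6.03 in both genotypes, and KO replicate 4 was the lowest array. Hsd17b4, the D-bifunctional protein of peroxisomes, averaged 9.11 in both (95% interval of the difference -0.19 to 0.20). Acaa1b has a close relative, Acaa1a, so RNA of one may reach probes of the other.

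Acyl-CoA thioesterases release free fatty acids from coenzyme A, Acot1 in the cytosol and Acot2 in mitochondria. Acot2 had the most negative difference of the members. It read 7.38, 7.31, 7.34 and 7.67 in KO replicates 1 to 4 and 7.87, 8.12, 7.40 and 8.28 in WT replicates 1 to 4. WT replicate 3 sat among the KO arrays and set the wide WT spread. The means were 7.43 ± 0.16 in KO and 7.92 ± 0.39 in WT (SD, n = 4 each), a difference of -0.49 ± 0.17 (SE), 0.711-fold (limma adjusted p = 0.220). It was -0.67 without WT replicate 3 (limma adjusted p = 0.0615) and -0.37 without WT replicate 4 (limma adjusted p = 0.362), and -0.20 and -0.28 with the posterior colon and colonocyte covariates. Acot1 read 5.31, 5.16, 5.55 and 5.34 in KO arrays and 5.35, 5.83, 5.48 and 5.78 in WT arrays. The genotypes overlapped, and the difference was -0.27 ± 0.13 (SE; limma adjusted p = 0.366). The genes are close relatives, and the Acot1 probe set was also dim, so their signals may not be separate.

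**Figure D3:**
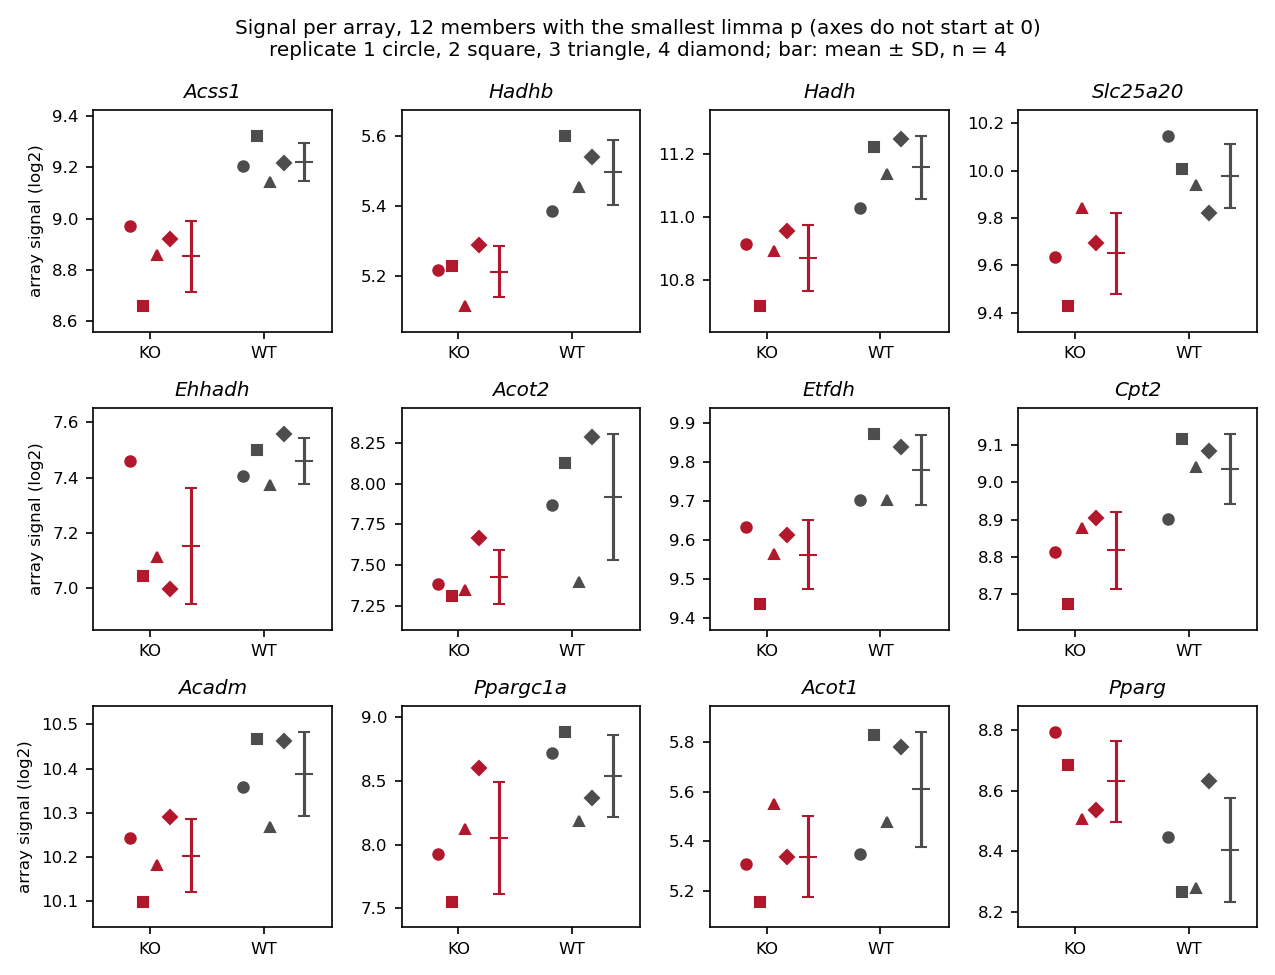
Array signal (y axes, log2, not starting at 0) of the 12 members with the smallest limma p in KO (red) and WT (grey) arrays, with the replicate shown by symbol and mean ± SD beside (n = 4). KO arrays lie below all WT arrays for Acss1, Hadhb, Hadh and Etfdh, and Pparg is the 1 gene of the 12 with the KO mean above the WT mean.

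The regulators had differences on both sides of 0. Ppara, the receptor that drives fatty acid oxidation during fasting, read 6.47, 6.00, 6.34 and 6.03 in KO replicates 1 to 4 and 6.28, 6.60, 6.59 and 6.36 in WT replicates 1 to 4. KO replicates 2 and 4 lay below the WT range and KO replicates 1 and 3 inside it, and the difference was -0.24 (95% interval -0.52 to 0.04, limma adjusted p = 0.426). Ppargc1a, the coactivator of mitochondrial biogenesis, read 7.93, 7.55, 8.12 and 8.60 in KO arrays and 8.72, 8.89, 8.18 and 8.37 in WT arrays. KO replicate 4 was above 2 WT arrays, and both groups were widely spread. Its difference was -0.49 ± 0.22 (SE), 0.713-fold (limma adjusted p = 0.346). Leaving out 1 array gave -0.67 without KO replicate 4 to -0.32 without KO replicate 2, and the posterior colon and colonocyte covariates gave -0.0194 and -0.0139.

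Pparg, the receptor of fat cells that colonocytes also express, had the most positive difference. It read 8.80, 8.69, 8.51 and 8.54 in KO replicates 1 to 4 and 8.45, 8.27, 8.28 and 8.63 in WT replicates 1 to 4. WT replicate 4 overlapped the KO arrays, and the difference was 0.23 (95% interval -0.01 to 0.46, limma adjusted p = 0.367). Adipocyte markers averaged 6.15 to 6.97 in KO arrays and 6.28 to 6.76 in WT arrays, overlapping. Pdk4, a kinase that shuts pyruvate out of the citric acid cycle when fat is burned, read 6.27, 5.98, 5.62 and 6.12 in KO arrays and 5.86, 5.87, 6.63 and 5.89 in WT arrays. WT replicate 3 stood above all other arrays, and the difference was -0.07 (95% interval -0.49 to 0.36).

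PPAR alpha binds DNA with its partner RXR at a direct repeat, the unit AGGTCA followed by any 1 base and AGGTCA again. RefSeq promoter windows (250 bases before to 50 after a start, GRCm38.p6) were at hand for 29 of the 33 members, all but Decr1, Acat1, Acaa2 and Hsd17b4. On either strand, the full repeat was in 0 of these 29 genes and in 0.0481% of all 27025 genes with a window. A looser form, AGGNCA, any 1 base and AGGNCA, was in 0 of 29 and in 0.451% of all genes, and the longer site TCAAGGTCA of estrogen-related receptors in 0 of 29 and 0.466%. At such shares almost any 29 genes would give 0, so these counts cannot tell the members from other genes. Sites outside the windows were not searched. The unit AGGTCA alone, which is also part of the strict repeat and of the estrogen-related receptor site, was in 5 of the 29, or 17.2%, against 18.1% of all genes. The share among members was thus close to that of all genes. The surroundings of these sites are shown as the stretches in which the members' windows match, with the unit or its reverse complement TGACCT in capitals, on the gene's strand and in the same build. Pparg had a match in 2 windows, of which 1 is shown.
Cpt1a, chr19:3323177-3323242, + strand: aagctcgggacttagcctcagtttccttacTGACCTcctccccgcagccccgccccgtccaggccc
Acadvl, chr11:70015480-70015545, - strand: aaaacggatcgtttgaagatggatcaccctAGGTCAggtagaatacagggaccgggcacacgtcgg
Acadm, chr3:153944857-153944893, - strand: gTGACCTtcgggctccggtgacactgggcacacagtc
Echs1, chr7:140116469-140116534, - strand: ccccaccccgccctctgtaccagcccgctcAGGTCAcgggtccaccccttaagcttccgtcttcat
Pparg, chr6:115361086-115361143, + strand: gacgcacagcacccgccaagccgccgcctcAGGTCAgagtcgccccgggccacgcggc
Of these genes Cpt1a, Acadvl, Acadm and Echs1 had differences of -0.02, -0.07, -0.19 and -0.12, and Pparg of 0.23.

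Genes of the same or neighbouring routes outside the members were read from 6 further lists. Over all tested genes, 53.9% had a difference below 0 and 8.10% were lower at an unadjusted limma p under 0.05. The list of further mitochondrial beta-oxidation held 21 measured genes, some of them of amino acid and propionate breakdown. Of the 21, 20 had a difference below 0, 0 passed the adjusted threshold and 6 were lower at an unadjusted limma p under 0.05. The median was -0.12. For 5 of the 21 the genotypes did not overlap, all lower in KO, where 5.02% of all genes had no overlap with KO lower. Mcee and Hibch, which serve other routes than beta-oxidation, are in both the count of 6 and that of 5. Mcee, an epimerase of propionate breakdown, averaged 8.13 ± 0.10 in KO and 8.52 ± 0.29 in WT (SD, n = 4 each; difference -0.39, limma adjusted p = 0.218). Hibch, of valine breakdown, differed by -0.23 and Ech1, a dienoyl-CoA isomerase, by -0.27 (limma adjusted p = 0.184 and 0.272).

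Ketone body genes were split. Of 7 measured, 4 were below 0, 0 passed, and the median was -0.05. Oxct1, the enzyme that lets cells use ketone bodies, differed by -0.24 and the monocarboxylate carrier Slc16a1, which takes up butyrate and ketone bodies, by -0.21 (limma adjusted p = 0.335 and 0.341). Slc16a3, a lactate exporter of glycolytic cells, had a difference above 0: it averaged 7.44 ± 0.28 in KO and 6.89 ± 0.19 in WT, a difference of 0.55 (limma adjusted p = 0.116).

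Of 25 peroxisomal enzymes and transporters, 17 were below 0, 0 passed, and the median was -0.07. Decr2, the peroxisomal dienoyl-CoA reductase, read 8.92, 8.98, 8.89 and 8.86 in KO replicates 1 to 4 and 9.28, 9.37, 9.08 and 9.52 in WT replicates 1 to 4, without overlap (difference -0.40, limma adjusted p = 0.100). Agps, which makes ether lipids in peroxisomes, read 8.75, 8.73, 8.64 and 8.86 in KO arrays and 8.41, 8.51, 8.43 and 8.34 in WT arrays, also without overlap but higher in KO (difference 0.32, limma adjusted p = 0.0968). Dhrs4 differed by -0.27, catalase (Cat) by -0.28 and Acaa1a by -0.18 (limma adjusted p = 0.149, 0.352 and 0.566). Of 12 peroxins, the proteins that build peroxisomes, 10 were below 0 with a median of -0.07 and 0 passed. Pex10, Pex11g and Pex3 differed by -0.20, -0.12 and -0.11 (limma adjusted p = 0.256, 0.553 and 0.661).

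Among 26 PPAR receptors, partners and target genes, 15 were below 0, the median was -0.02 and 0 passed. The largest differences opposed each other. Angptl4, a PPAR target that blocks lipoprotein lipase, averaged 6.73 ± 0.45 in KO and 5.83 ± 0.28 in WT (difference 0.90, limma adjusted p = 0.0951), and passed without KO replicate 3, the KO array that lacks the pancreatic signal (difference 1.06, limma adjusted p = 0.0390). In KO replicate 3 alone the difference was 0.41, with the pancreatic covariate 0.40, with the colonocyte covariate 0.0381 and without KO replicate 2 0.70. Pdk2, a relative of Pdk4, averaged 7.66 ± 0.17 in KO and 8.26 ± 0.31 in WT (difference -0.60, limma adjusted p = 0.106). The orphan receptor Esrrg differed by -0.40 and Ppard by 0.01 (limma adjusted p = 0.193 and 0.982).

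The list of acyl-CoA synthetases and lipid uptake genes held the 1 gene that passed among the 159 measured in all companion lists. This is near the share over all tested genes, of which 0.577% passed. Acsl4, which activates arachidonic acid and other polyunsaturated fatty acids, read 8.33, 8.47, 8.17 and 8.29 in KO replicates 1 to 4 and 7.95, 7.72, 7.70 and 7.75 in WT replicates 1 to 4. Every KO array was above every WT array. It was 1.45-fold higher in KO (difference 0.53 ± 0.09 SE, limma adjusted p = 0.0358). The call ended when KO replicate 1, 2 or 4 or WT replicate 2, 3 or 4 was left out, with limma adjusted p of 0.0861, 0.118, 0.0670, 0.145, 0.0718 and 0.0853. Fabp5, a fatty acid binding protein, averaged 7.43 ± 0.22 in KO and 6.66 ± 0.35 in WT (difference 0.77, limma adjusted p = 0.0803), and passed without KO replicate 3 (difference 0.88, limma adjusted p = 0.0479). The Fabp5 difference was 0.46 in KO replicate 3 alone, 0.48 with the pancreatic covariate, 0.50 with the colonocyte covariate and 0.62 without WT replicate 3. Dgat2, the last enzyme of triglyceride synthesis, differed by 0.45 (limma adjusted p = 0.191). Of the 17 genes 5 were below 0, and the median was 0.04.

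**Figure D4:**
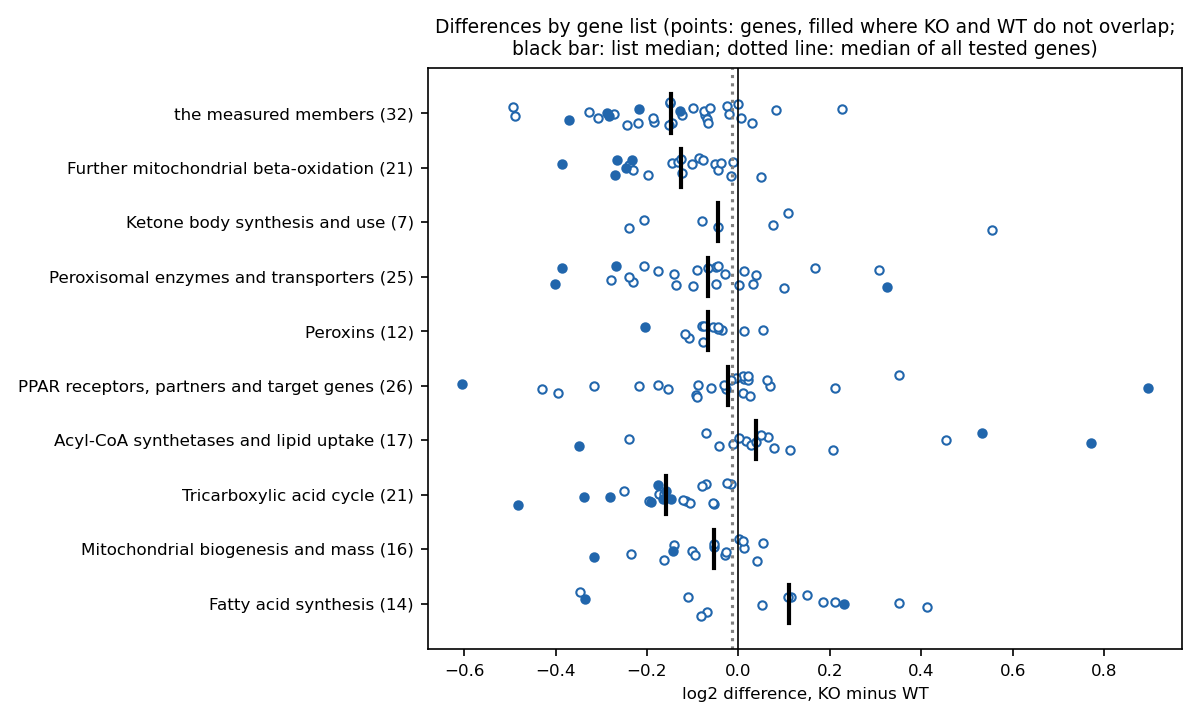
Log2 difference, KO minus WT (x axis), of each measured gene (points) in the members and 9 companion lists (rows, number of genes in brackets), with list medians as black bars. The members have a median of -0.15 and fatty acid synthesis genes 0.11. The further beta-oxidation and tricarboxylic acid cycle lists, which also hold genes of neighbouring routes, have medians of -0.12 and -0.16.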

How the data were processed

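RNA of 8 middle colons (200 ng each, per the labels' protocols) was measured on Affymetrix whole-transcript arrays, 1 for each mouse. The authors deposited log2 values made by RMA in Affymetrix Expression Console 1.4, per the submitters' processing notes. RMA understates folds of dim genes. No scan batch is known here, and arrays have no read depth. Whether mice shared litters or cages is unknown, so p-values measure the spread between these samples.

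Among 41345 probe sets, 23521 were annotated to 1 gene, 1814 to several and 16010 to none. Names were updated by Entrez identifier where the RefSeq table (GRCm38.p6) held it (23328 probe sets). The brightest probe set per gene left 22180 genes, with no filter on dim genes. The test was limma 3.58.1 under R 4.3.3 (KO against WT, no covariate, Benjamini-Hochberg over all genes, threshold 0.05), tested on simulated data. The members, lists and tests were chosen with earlier results of these data known. All measured members were named. Per-array values were given for the 12 with the smallest p and for Cpt1a, Ppara, Pparg, Ppargc1a, Pdk4, Bdh1, Ehhadh, Acaa1b, Acot1 and Acot2. The 3 genes with the smallest p of each companion list, Acaa1a, Ppard and Cat were also named. Per-array values of companions were added after they were seen. Alternatives were other variance, weighting, scaling, filter and probe set choices, a replicate block, 3 marker covariates and leaving out each array. KO replicate 3 alone and bright members alone were added after seeing the data.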

Additional observations from a re-analysis of the deposited data

Results flagged for a closer look

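Among the named genes, 126 sets of 4 arrays of 1 genotype were examined for an array far from the other 3, by Dixon's test, and 6 were flagged, where chance flags about 1 in 20. For Etfb, KO replicate 1 was at 8.72, against a mean of 8.36 in the other KO arrays. Pdk4 stood at 6.63 in WT replicate 3, against 5.87 in the other WT arrays. Mcee and Ech1 were low in KO replicate 2, at 7.98 and 9.87, against 8.19 and 9.97 in the other KO arrays. Acaa1a was at 5.96 in KO replicate 1, against 6.38, and Cat at 10.03 in KO replicate 4, against 9.71, in the other KO arrays. Etfb and Pdk4 changed sign without these arrays: without KO replicate 1 the Etfb difference was -0.01, and without WT replicate 3 that of Pdk4 was 0.12.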

How the results depend on the processing

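No member passed the adjusted limma threshold under any of the 20 alternatives run, where the lowest adjusted p was 0.0615. Of 640 member values, 604 kept their direction. Part of that count was fixed beforehand. The variance trend, the filter on dim genes, the fit of all probe sets and the replicate block leave every member difference unchanged. Averaging a gene's probe sets could change Acss1 only. The count thus overstates how far direction was tested. The arrays limit small differences, and Hadhb and Acot1 lay near background. Genes passing numbered 128 of all tested; they numbered 199 with array weights, 203 with the dimmest genes left out, 64 with the replicate number as a block, 2 with the pancreatic or posterior colon covariate, 0 with the colonocyte covariate and 14 with KO replicate 3 alone. Leaving out 1 array gave 25 to 252 genes, 5 to 10 members without overlap, 26 to 30 members below 0, member medians of -0.18 to -0.10 and Trim58 differences of -0.18 to 0.00285. Replicate numbers did not pair arrays (correlations of same-numbered deviations -0.16 to 0.06; 0 of 4 KO arrays correlated best with their own number), and the block gave 0 members and ended the Acsl4 call (adjusted p = 0.0865).

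Equal array medians gave 8 members without overlap, and Hsd17b4 at -0.00153. Acsl4 missed the threshold with equal medians (difference 0.53, adjusted p = 0.0507) and each covariate (0.36 to 0.47). With KO replicate 3 alone it was 0.38; there 1 KO array is assumed to vary like the WT arrays, so a missed threshold says little. Fabp5 passed with array weights (adjusted p = 0.0485), where Ppard was -0.0246. With the pancreatic covariate Acadl was 0.0303, Etfa 0.0229, Hsd17b4 -0.0927 and Acaa1b 0.115, and with the posterior covariate Etfb was -0.0805 and Hsd17b4 -0.0892. KO replicate 3 alone gave Acadl 0.0343, Hsd17b4 -0.124 and Acaa1b 0.0873. With the colonocyte covariate, 14 members were below 0 and the median was 0.0219; the values that changed sign were Acadvl 0.0704, Acadl 0.0217, Acads 0.304, Hadha 0.0516, Eci1 0.0182, Eci2 0.171, Etfa 0.175, Acaa2 0.0432, Acat1 0.104, Bdh1 0.148, Ehhadh 0.0267, Acaa1b 0.409, Acot1 0.132, Ppara 0.274, Esrrg 0.0778, Dgat2 -0.0955, Tfb1m 0.0219, Mfn2 0.0405 and Vdac3 0.0140. Leaving out 1 array gave ranges across 0 for Cpt1a (-0.0679 to 0.0121), Acadl (-0.0634 to 0.00692), Etfb (-0.00828 to 0.129), Hsd17b4 (-0.0634 to 0.04996), Acaa1b (-0.0989 to 0.143), Pdk4 (-0.155 to 0.124) and Ppard (-0.0828 to 0.0693). The count without overlap was not recomputed for covariates, weights or the block. The causes were not tested.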

Other observations

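Genes listed for the tricarboxylic acid cycle, which takes up the acetyl-CoA of beta-oxidation, all had differences below 0. This held for 21 of 21 measured genes of the list, with a median of -0.16, where 53.9% of all tested genes were below 0. The list also holds genes of pyruvate dehydrogenase and pyruvate carboxylase, which feed pyruvate into the cycle and are not enzymes of the cycle itself. None of the 21 passed the adjusted limma threshold, and 6 were lower at an unadjusted p under 0.05, where 8.10% of all genes were. For 8 the genotypes did not overlap, all lower in KO, where 5.02% of all genes had no overlap with KO lower. Pcx is in both the count of 6 and that of 8. Citrate synthase (Cs) read 10.99, 10.96, 11.12 and 11.00 in KO replicates 1 to 4 and 11.30, 11.41, 11.21 and 11.27 in WT replicates 1 to 4, a difference of -0.28 (limma adjusted p = 0.130). Sdhc, a membrane anchor of succinate dehydrogenase, averaged 9.13 ± 0.11 in KO and 9.46 ± 0.06 in WT (SD, n = 4 each; limma adjusted p = 0.0951). Pcx, pyruvate carboxylase, averaged 7.62 ± 0.27 in KO and 8.10 ± 0.09 in WT (limma adjusted p = 0.120).

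Of 16 genes of mitochondrial biogenesis and mass, 11 were below 0 with a median of -0.05 and 0 calls. Tfb1m, a mitochondrial ribosomal RNA methyltransferase, differed by -0.32, the fusion protein Mfn2 by -0.23 and the porin Vdac3 by -0.14 (limma adjusted p = 0.163, 0.307 and 0.421). Fatty acid synthesis genes lay mostly on the other side, with 5 of 14 below 0, a median of 0.11 and 0 calls. Acacb, which makes the malonyl-CoA that inhibits carnitine palmitoyltransferase, differed by 0.23, the desaturase Fads2 by -0.35 and the sugar-sensing factor Mlxipl by -0.34 (limma adjusted p = 0.220, 0.188 and 0.146).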
